A study of Mus musculus with 18 samples.

Results

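The 10 genes described here encode amino acid transporters of the plasma membrane: Slc7a1, Slc7a3, Slc7a5, Slc7a6, Slc7a11, Slc3a2, Slc1a4, Slc1a5, Slc38a1 and Slc38a2. They were chosen by symbol, with earlier results of these data known, and all 10 were found among the 23420 genes of each library. RNA was sequenced from 18 libraries of splenic B cells, purified with beads from MRL/lpr (MRL.Faslpr) mice, an inbred lupus strain with a defective Fas gene, aged 5 to 7 weeks. There were 6 groups of 3 libraries. The treatment text names 3 mice per genotype, and which libraries share a mouse is not given in the sources used here. B cells were enriched by depleting cells that carried CD43, CD4, CD8, CD11b, CD11c or Gr-1, a step that removes T cells and myeloid cells. The mice of the first arm were female and all lacked Tlr7, and their B cells (4 M cells at 10 M per ml) were kept for 4 h without agonist or with the TLR9 agonist CpG ODN 1826 at 10 µg/ml. Within that arm, Tlr9het B cells carried 1 working Tlr9 allele by their titles, while the treatment text names the same control Tlr9-/- Tlr7-/-. The titles were followed. Tlr997 B cells made TLR9 with the cytoplasmic signaling (TIR) domain of TLR7, from a homozygous insertion in the Tlr9 locus. The second arm held male Tlr779 mice, all Tlr9-/-, which made TLR7 with the TIR domain of TLR9, and their B cells (5 M cells) were kept for 4 h without agonist or with the TLR7 agonist CL097 at 5 µg/ml. Its Tlr7 wild-type control was not analysed here. The labels give 5 to 7 weeks for every mouse, whereas the study's methods give 5 weeks for the females and 5 to 7 for the males. Sex, genotype, agonist and cell number all change between the arms, and age may too. Values of the arms are therefore given side by side with no test between them.

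Resting lymphocytes take up few amino acids, and activated ones switch on transporters before they grow and divide. Cationic transporters of the CAT family, Slc7a1 and Slc7a3, bring in arginine, lysine and ornithine on their own. The light chains Slc7a5 (LAT1), Slc7a6 and Slc7a11 (xCT) work only when disulfide-linked to the heavy chain Slc3a2 (CD98hc, 4F2hc), which carries them to the surface. Slc7a5 exchanges large neutral amino acids such as leucine, Slc7a6 exchanges arginine against neutral amino acids, and Slc7a11 exchanges cystine against glutamate. Slc1a4 (ASCT1) and Slc1a5 (ASCT2) carry small neutral amino acids, ASCT2 also glutamine, and Slc38a1 and Slc38a2 (SNAT1, SNAT2) are sodium-coupled carriers of glutamine and alanine.

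Levels are the authors' log2 CPM values, read counts scaled to a common library total, so a step of 1 is a doubling relative to the rest of the library. A change was called when the Benjamini-Hochberg adjusted p of limma, over all genes tested, was under 0.05 and the log2 fold change exceeded 0.5 in size. All 10 members passed the filter on low values in both arms. These are whole-population values in which fewer cells of a type and less RNA per cell cannot be told apart, and quantile normalization hides any change in total RNA per cell.

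Libraries summed to between 991992 and 1004412 CPM, so their read depth is unknown. Replicates correlated at r of 0.94 to 0.99 across genes. All 8 B cell markers were above 0 log2 CPM in every group, with summed levels of 5990 to 7960 CPM unstimulated and 1990 to 3830 CPM stimulated. Summed CPM of 6 plasma cell markers was 1080 to 1650 unstimulated and 2110 to 2630 stimulated, with Tnfrsf17 below 0 log2 CPM throughout. Over 7 dendritic cell markers it was 58.4 to 80.9 and 124 to 172, and over 7 T cell markers 52.0 to 91.4 and 56.3 to 120. Over 8 macrophage and monocyte markers it was 131 to 462 unstimulated and 104 to 221 stimulated, and over 7 neutrophil markers 35.5 to 175 and 21.0 to 124. Erythroid markers (7) summed to 12.5 to 488 CPM and NK cell markers (6) to 1.39 to 15.7 CPM. The part of these cell types in the member values was not tested. Without and with agonist, Tlr7 averaged 3.15 and 4.21 log2 CPM in Tlr9het and 4.96 and 5.34 in Tlr997, both Tlr7-/-. It averaged 6.88 and 7.38 in Tlr779. Tlr9 averaged 7.24 and 7.19 in the Tlr9-/- groups (Tlr779), close to the 7.37 of unstimulated Tlr9het. By design the Tlr997 transcript holds the Tlr7 TIR sequence and the Tlr779 transcript that of Tlr9. The part of such reads, or of reads from the knockout alleles, in these values was not tested.

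Most of the transporter genes rose with either agonist, while Slc7a11 and Slc38a2 were called in no response and Slc38a1 fell with CL097. CpG raised 7 of the 10 members in Tlr9het and lowered 0, where 29.7% of all 11494 tested genes were called higher and 28.2% lower. It raised 7 and lowered 0 in Tlr997, against a background of 29.6% higher and 26.0% lower. CL097 raised 6 members and lowered 1 in Tlr779, where 22.7% of 11082 genes were higher and 23.6% lower. The median log2 fold change of the members was 1.27, 1.12 and 0.82 in the respective responses, beside medians over all tested genes of 0.04, 0.07 and -0.02. Summed over the 10 genes, transcript levels were 1610 to 1640 CPM in unstimulated and 3670 to 4020 CPM in CpG-stimulated Tlr9het libraries. The sums were 1610 to 1790 and 3030 to 3480 CPM in Tlr997, and 1540 to 1670 and 2000 to 2220 CPM in Tlr779. In each genotype every stimulated library lay above every unstimulated one.

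**Figure D1:**
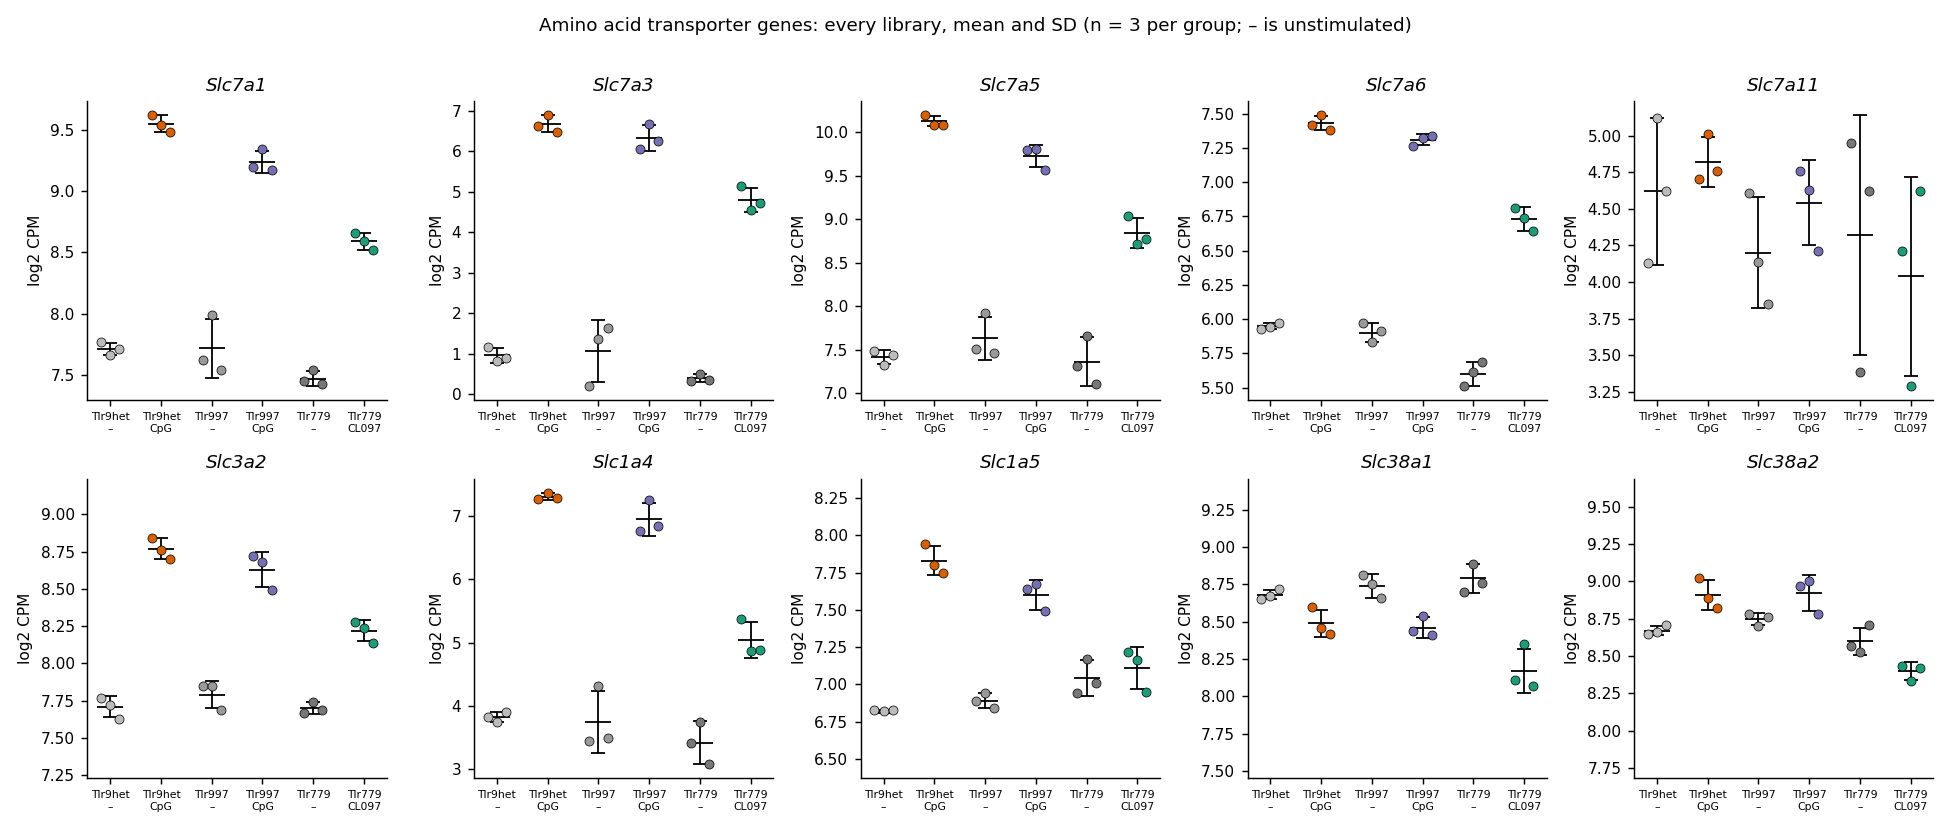
Level of each transporter gene in log2 CPM (vertical axis, scaled per gene) in the 6 groups, with 1 point per library and bars for the mean and SD of 3 libraries. Slc7a1, Slc7a3, Slc7a5, Slc7a6, Slc3a2 and Slc1a4 show no overlap of stimulated and unstimulated libraries in any genotype, while Slc7a11 libraries overlap in all.

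The cationic carriers Slc7a1 and Slc7a3 both rose in all 3 genotypes, from very different starting levels. Slc7a1, the widely expressed arginine carrier CAT1 (chr5:148327410-148399904, minus strand, mm10), was at 7.77, 7.66 and 7.71 log2 CPM in unstimulated Tlr9het and at 9.62, 9.54 and 9.48 with CpG. In Tlr997 it was at 7.62, 7.99 and 7.54 and then at 9.2, 9.34 and 9.17. In Tlr779 it was at 7.45, 7.54 and 7.43, and with CL097 at 8.66, 8.59 and 8.52. No stimulated library overlapped an unstimulated one. The increases were 3.57-fold (95% interval 3.09 to 4.12, limma adjusted p = 9.9e-10), 2.87-fold (2.48 to 3.31, adjusted p = 8.1e-09) and 2.17-fold (1.95 to 2.41, adjusted p = 7.6e-06) for Tlr9het, Tlr997 and Tlr779.

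Slc7a3, encoding CAT3 and lying on the X chromosome (X:101079146-101090452, minus strand), was barely detected before stimulation and had the steepest rise of the 10. Its unstimulated levels were 1.16, 0.81 and 0.90 log2 CPM in Tlr9het, 0.20, 1.36 and 1.64 in Tlr997 and 0.32, 0.51 and 0.36 in Tlr779. Stimulated levels were 6.63, 6.89 and 6.48 in Tlr9het, 6.06, 6.67 and 6.24 in Tlr997 and 5.13, 4.54 and 4.73 in Tlr779. The CpG-treated libraries of both genotypes lay above all CL097-treated ones, which differ from them in sex, genotype and agonist at once. The log2 fold changes were 5.71 ± 0.30 (SE, limma adjusted p = 9.5e-10), 5.25 ± 0.30 (adjusted p = 2.7e-09) and 4.40 ± 0.20 (adjusted p = 3.6e-06), which placed the gene 12th of 11494, 16th of 11494 and 19th of 11082 from the top. Their size depended on the processing. Over the alternative settings they ran from 5.12 to 5.81, from 4.68 to 5.54 and from 3.64 to 4.53, and were called in each. Per kilobase of exon, the scale on which genes can be compared, Slc7a3 made up 2.57% to 3.03% of the summed Slc7a1 and Slc7a3 level in unstimulated Tlr9het and 27.7% to 32.6% with CpG. The share went from between 1.75% and 4.83% to between 25.7% and 32.4% in Tlr997, and from between 2.13% and 2.28% to between 15.5% and 20.8% in Tlr779.

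Slc7a5, encoding the leucine carrier LAT1 (chr8:121881146-121907686, minus strand), was the most abundant member per kilobase in every stimulated group. It measured 7.48, 7.32 and 7.44 log2 CPM in unstimulated Tlr9het and 10.20, 10.09 and 10.09 with CpG. The Tlr997 libraries measured 7.51, 7.92 and 7.46 and then 9.80, 9.81 and 9.57, and the Tlr779 libraries 7.31, 7.66 and 7.1 and then 9.04, 8.71 and 8.77. Stimulated groups were ordered Tlr9het with CpG, Tlr997 with CpG and Tlr779 with CL097, with no overlap between neighbours. The rises were 6.54-fold (95% interval 5.60 to 7.66, limma adjusted p = 6.3e-11), 4.28-fold (3.66 to 5.00, adjusted p = 8.8e-10) and 2.79-fold (2.21 to 3.52, adjusted p = 6.7e-05). The annotation places Gm20388 over Slc7a5 on the opposite strand, and the strand setting of the counting is not given in the sources used here.

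Slc7a6, the y+LAT2 light chain (chr8:106168219-106198714, plus strand), rose less and with little spread. Unstimulated levels were 5.93, 5.94 and 5.97 log2 CPM in Tlr9het, 5.97, 5.83 and 5.91 in Tlr997 and 5.51, 5.61 and 5.69 in Tlr779. With agonist they were 7.42, 7.49 and 7.38, then 7.26, 7.32 and 7.34, and 6.81, 6.74 and 6.64 respectively. Every stimulated library was above every unstimulated one, and the log2 fold changes were 1.48 ± 0.06, 1.40 ± 0.06 and 1.12 ± 0.08 (SE, limma adjusted p = 5.3e-11, 1.1e-10 and 1.5e-05).

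The shared heavy chain Slc3a2 (chr19:8706882-8723369, minus strand) also rose in each genotype, by less than Slc7a5 or Slc7a6. Its levels were 7.77, 7.72 and 7.63 log2 CPM and then 8.84, 8.76 and 8.70 in Tlr9het, and 7.85, 7.85 and 7.69 and then 8.72, 8.68 and 8.49 in Tlr997. In Tlr779 they were 7.67, 7.74 and 7.69 and then 8.28, 8.24 and 8.14. The groups did not overlap in any genotype. Fold changes were 2.09 (95% interval 1.88 to 2.32, limma adjusted p = 1.2e-08), 1.79 (1.61 to 1.99, adjusted p = 1.6e-07) and 1.43 (1.29 to 1.59, adjusted p = 2.2e-04). The call for CL097 was close to the threshold of 0.5 on the log2 scale: Slc3a2 changed by 0.52, and by 0.49 (adjusted p = 0.0012) without the first CL097 library.

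Because 1 heavy chain serves all 3 light chains of the set, their transcript levels per kilobase were set against each other. Slc7a7 and Slc7a8, tested among the other plasma membrane transporters, were not part of the sum. They averaged 3.67 and 3.43 log2 CPM in unstimulated Tlr9het and were called in no response. In unstimulated libraries the 3 light chains together about equalled Slc3a2, at ratios of 0.990 to 1.11 in Tlr9het, 0.993 to 1.21 in Tlr997 and 0.855 to 1.08 in Tlr779. After stimulation the light chains exceeded it, at ratios of 2.72 to 2.82, 2.30 to 2.40 and 1.60 to 1.90. Slc7a5 accounted for most of this shift, with a ratio to Slc3a2 of 0.723 to 0.837 before and 2.39 to 2.50 after CpG in Tlr9het. The corresponding ratios were 0.755 to 0.998 and 2.01 to 2.08 in Tlr997, and 0.632 to 0.895 and 1.32 to 1.61 in Tlr779. These ratios use GENCODE exon lengths, so their absolute size depends on which exons B cells use, while the change on stimulation does not depend on the lengths for Slc7a5 against Slc3a2.

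**Figure D2:**
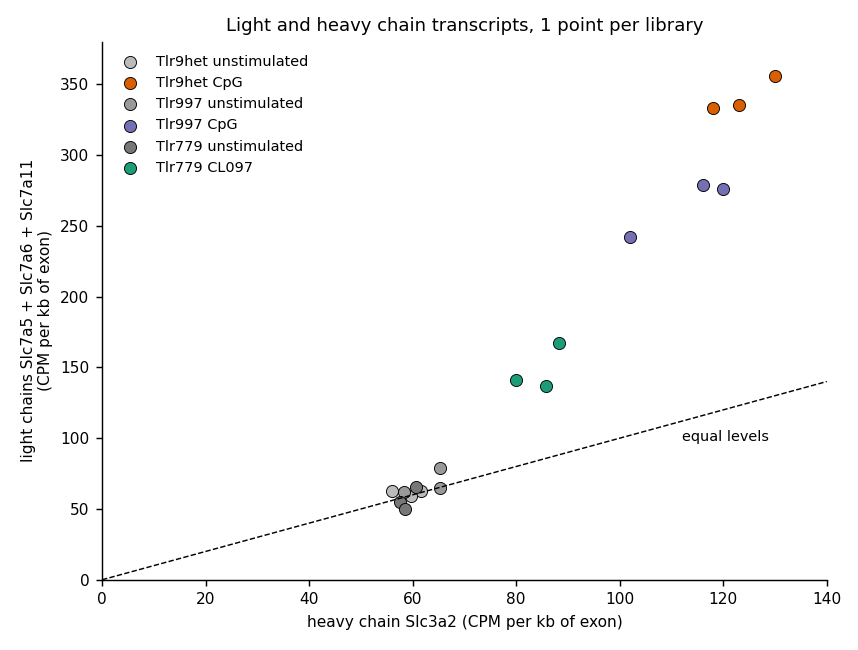
Summed CPM per kilobase of exon of the light chains Slc7a5, Slc7a6 and Slc7a11 (vertical axis) against the heavy chain Slc3a2 (horizontal axis), with 1 point per library and a dashed line at equal levels. Unstimulated libraries lie near the line, at heavy chain levels of 56.1 to 65.3, and all stimulated libraries lie above it.

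Slc7a11, the cystine carrier xCT (chr3:50364936-50499087, minus strand), was the only light chain of the set not called in any response. Its levels were 4.13, 5.12 and 4.62 log2 CPM in unstimulated Tlr9het and 4.70, 5.01 and 4.76 with CpG. They were 4.61, 4.14 and 3.85 and then 4.76, 4.63 and 4.21 in Tlr997, and 4.95, 3.39 and 4.62 and then 4.21, 3.29 and 4.62 in Tlr779. Stimulated and unstimulated libraries overlapped in each genotype. The log2 fold changes of 0.20 (95% interval -0.33 to 0.72, limma adjusted p = 0.48), 0.34 (-0.19 to 0.86, adjusted p = 0.23) and -0.28 (-1.32 to 0.76, adjusted p = 0.61) leave room for changes in either direction. Gene models on the opposite strand (Gm37854 among them) and pseudogenes lie inside this gene. Its group SDs ran from 0.17 to 0.82. Over the 18 libraries, with each arm centred on its own mean, the most similar of 11002 genes was Clec4e, a macrophage receptor gene (Pearson's r = 0.94, Spearman's rho = 0.93, and r = 0.93 without the 2 libraries farthest out for Clec4e). Clec4e levels were 3.91, 4.85 and 4.24 log2 CPM in unstimulated Tlr9het, 4.28, 4.08 and 3.44 in Tlr997 and 4.79, 3.16 and 4.85 in Tlr779. Slc7a11 correlated with the summed macrophage and monocyte markers at r = 0.52 (rho = 0.48, and 0.35 without the 2 farthest libraries), with the neutrophil markers at r = 0.51 (rho = 0.48, and 0.37 without the 2 farthest) and with the B cell markers at r = -0.12 (rho = -0.08). Its nearest member was Slc38a2, at 0.397. These are descriptions over libraries that share normalization, with Clec4e picked as the highest of all genes, and the part of myeloid cells in the Slc7a11 level was not tested.

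Both ASC-type carriers rose with CpG, and Slc1a4 was the only one of the pair called with CL097. Slc1a4, which carries serine, alanine and cysteine (chr11:20302180-20332713, minus strand), was at 3.83, 3.75 and 3.90 log2 CPM in unstimulated Tlr9het and at 7.28, 7.37 and 7.29 with CpG. The Tlr997 values were 3.45, 4.31 and 3.49 and then 6.77, 7.25 and 6.85, and the Tlr779 values 3.42, 3.75 and 3.08 and then 5.37, 4.87 and 4.88. The stimulated libraries were far above the unstimulated ones in each genotype, by 11.2-fold (95% interval 8.44 to 14.9, limma adjusted p = 1.5e-09), 9.22-fold (6.94 to 12.2, adjusted p = 4.4e-09) and 3.08-fold (2.22 to 4.28, adjusted p = 2.5e-04). Slc1a5, the glutamine carrier ASCT2 (chr7:16781334-16798274, plus strand), was at 6.83, 6.82 and 6.83 and then 7.94, 7.80 and 7.75 in Tlr9het, and at 6.89, 6.94 and 6.84 and then 7.64, 7.67 and 7.49 in Tlr997. With CL097 the Tlr779 libraries moved from 6.94, 7.17 and 7.01 to 7.22, 7.16 and 6.95, and the groups overlapped. CpG raised Slc1a5 by 2.01-fold (1.83 to 2.21, adjusted p = 7.4e-09) and 1.64-fold (1.49 to 1.80, adjusted p = 3.0e-07), while the CL097 estimate was 1.05-fold (0.901 to 1.22, adjusted p = 0.56). Per kilobase, Slc1a4 made up 11.2% to 12.2% of the Slc1a4 and Slc1a5 sum in unstimulated Tlr9het and 40.1% to 44.0% with CpG, and 6.50% to 9.02% and 17.8% to 22.7% in Tlr779 without and with CL097.

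The system A carriers changed little with CpG, and Slc38a1 fell with CL097. Slc38a1 (chr15:96571418-96643438, minus strand) measured 8.65, 8.67 and 8.72 log2 CPM and then 8.60, 8.46 and 8.42 in Tlr9het, and 8.81, 8.75 and 8.66 and then 8.44, 8.54 and 8.41 in Tlr997. In Tlr779 it measured 8.70, 8.89 and 8.76 and then 8.11, 8.35 and 8.07. It was lower in every stimulated than in every unstimulated library of its genotype, yet only the CL097 change passed both thresholds, at -0.61 ± 0.09 (SE, limma adjusted p = 6.1e-04). The CpG changes of -0.19 ± 0.06 (adjusted p = 0.012) and -0.28 ± 0.06 (adjusted p = 9.7e-04) were under the fold threshold. Slc38a2 (chr15:96687392-96699728, minus strand) measured 8.65, 8.66 and 8.71 and then 9.02, 8.89 and 8.82 in Tlr9het, and 8.78, 8.70 and 8.76 and then 8.97, 9.0 and 8.78 in Tlr997. In Tlr779 it measured 8.57, 8.53 and 8.71 and then 8.43, 8.33 and 8.42. All CpG libraries of Tlr9het were above its unstimulated ones and all CL097 libraries of Tlr779 were below theirs, with changes of 0.24 ± 0.07 (adjusted p = 0.0051), 0.17 ± 0.07 (adjusted p = 0.033) and -0.20 ± 0.07 (adjusted p = 0.034), none of them over the fold threshold.

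**Figure D3:**
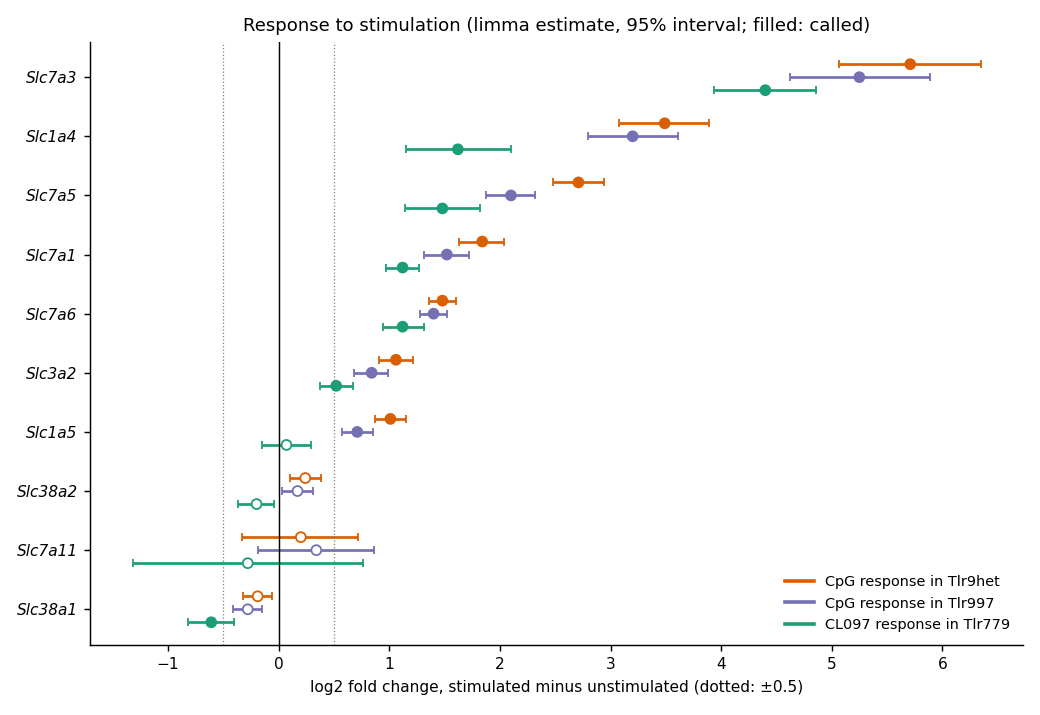
Log2 fold change of each transporter gene on stimulation (horizontal axis) with its 95% interval from limma, for CpG in Tlr9het and Tlr997 and CL097 in Tlr779. Filled points were called, dotted lines mark 0.5 in either direction, and the estimates run from 5.71 for Slc7a3 in Tlr9het to -0.61 for Slc38a1 in Tlr779.

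The order of the 10 genes per kilobase therefore changed on stimulation. These places depend on the GENCODE exon lengths, such as 17.2 kb for Slc38a1 and 3.53 kb for Slc3a2, and on which exons B cells use. At rest Slc3a2 led in all 3 genotypes, at 59.1, 62.9 and 59.0 CPM per kb (geometric means), although its libraries overlapped those of Slc7a5 in Tlr997. Slc38a2 and Slc7a5 came next and overlapped each other in each genotype, at 46.2 and 46.1 CPM per kb in Tlr9het. Slc7a3 was last, at 0.513, 0.554 and 0.348 CPM per kb. After stimulation Slc7a5 led at 301, 229 and 123 CPM per kb, above every Slc3a2 library, and Slc7a11 was last at 2.03, 1.67 and 1.18. Slc1a5 and Slc38a2 could not be separated in Tlr9het with CpG, at 54.6 and 54.5 CPM per kb, nor could Slc7a3 and Slc38a1 in Tlr997 with CpG, at 21.1 and 20.5.

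Promoter sequence was at hand from RefSeq (GRCm38.p6) for 6 of the 10 members, in windows of 250 bases before to 50 after a transcription start. Both strands were searched for the ATF4 type motif of the amino acid response (TGATGNAAN), the NRF2 type motif (TGACNNNGC) and the Myc type E box (CACGTG), none of which contains another. The ATF4 type motif stood in windows of 2 of the 6 members, Slc7a11 and Slc1a4, and in 3.95% of all 32851 promoter windows. The NRF2 type motif stood in windows of 3 members, Slc7a1, Slc7a6 and Slc38a2, and in 12.4% of all windows. The E box stood in 0 of the 6 and in 7.15% of all. An NF-kB type motif, searched in the same way, stood in windows of 5 of the 6 members, all but Slc3a2. It also stood in 50.8% of all windows. The Slc7a11 and Slc1a4 stretches are printed because both hold the ATF4 type motif, while Slc1a4 was called higher in each response and Slc7a11 in none. Capitals mark the motif, which lies on the given strand at the first Slc7a11 match and on the opposite strand at the other matches. The Slc7a11 stretch is chr3:50443614-50443713 and the Slc1a4 stretch chr11:20332704-20332783, both on the minus strand of GRCm38.p6 and starting 100 and 70 bases upstream of the start site.
Slc7a11: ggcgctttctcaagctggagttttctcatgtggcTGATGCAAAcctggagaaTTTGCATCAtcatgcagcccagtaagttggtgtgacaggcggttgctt
Slc1a4: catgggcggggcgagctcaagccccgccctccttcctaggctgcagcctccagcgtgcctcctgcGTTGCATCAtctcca
The presence of these letters is a description of the sequence and not evidence of a bound factor.

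Whether exchanging the TIR domain of TLR9 for that of TLR7 altered the transporter transcripts was asked by setting Tlr997 against Tlr9het. Without agonist, 0 of the 10 members were called by limma and 0 had an unadjusted p under 0.05, where 0.0174% of all genes were called. The estimates ran from -0.42 for Slc7a11 to 0.21 for Slc7a5. Slc1a5 was the only member whose unstimulated groups did not overlap, with every Tlr997 library above every Tlr9het library, an arrangement seen in 6.59% of all genes, and its difference was 0.06 (95% interval -0.07 to 0.20).

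With CpG, 9 of the 10 members had lower estimates in Tlr997, though 0 were called, where 2.72% of all genes were called in either direction. The median difference of the members was -0.26, beside 0.00 over all genes, and 4 members had an unadjusted p under 0.05, as had 2187 of all 11494 genes. The summed B cell markers also differed here, at 1990 to 2130 CPM in Tlr9het and 3080 to 3830 CPM in Tlr997 with CpG, and their part in the member values was not tested. Every Tlr997 library lay below every Tlr9het library for 5 members (Slc7a1, Slc7a5, Slc7a6, Slc1a4 and Slc1a5), an arrangement seen in 15.4% of all genes. Slc7a5 had the lowest adjusted p, at -0.40 ± 0.10 (SE, 0.042 by limma's adjusted p), which is 0.758-fold (95% interval 0.648 to 0.887) and short of the fold threshold. Slc1a5 differed by -0.23 ± 0.06 (adjusted p = 0.051) and Slc7a1 by -0.31 ± 0.10 (adjusted p = 0.080). For Slc3a2 the difference of -0.14 had an interval of -0.29 to 0.02, and for Slc38a2 the difference of 0.01 one of -0.14 to 0.15.

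The difference between the CpG responses of the genotypes, tested as an interaction, shares the stimulated libraries with that comparison. Here 0 of the 10 members were called, where 1.54% of all genes were called in either direction, and 9 estimates were negative with a median of -0.25. For 5 members (Slc7a1, Slc7a5, Slc3a2, Slc1a4 and Slc1a5) every numbered response of Tlr997 was below every one of Tlr9het, as for 12.5% of all genes. Numbered responses, like the block fits below, pair libraries by replicate number, which the labels do not give. In Tlr997 the deviations of same-numbered libraries correlated at 0.37, 0.0826 and 0.0248, beside up to 0.17 between different numbers. The Slc7a5 responses were 2.72, 2.77 and 2.65 in Tlr9het and 2.29, 1.89 and 2.11 in Tlr997, and did not overlap. Their difference was -0.61 ± 0.15 (SE, limma adjusted p = 0.053), a response 0.654-fold that of Tlr9het (95% interval 0.524 to 0.816). The Slc7a5 result sat at the threshold: its adjusted p ran from 0.0046 to 0.23 over 24 alternatives, 7 of which called it. These included the fits with replicate number as a block (-0.61, adjusted p = 0.043, and 0.0055 with the block within genotype) and those without the first (-0.67, adjusted p = 0.043) or the third (-0.70, adjusted p = 0.023) unstimulated Tlr997 library. The Slc1a5 responses were 1.12, 0.99 and 0.92 in Tlr9het and 0.75, 0.74 and 0.65 in Tlr997, a difference of -0.30 ± 0.09 (adjusted p = 0.12). For Slc7a6, by contrast, the difference of -0.08 had an interval of -0.25 to 0.09.

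**Figure D4:**
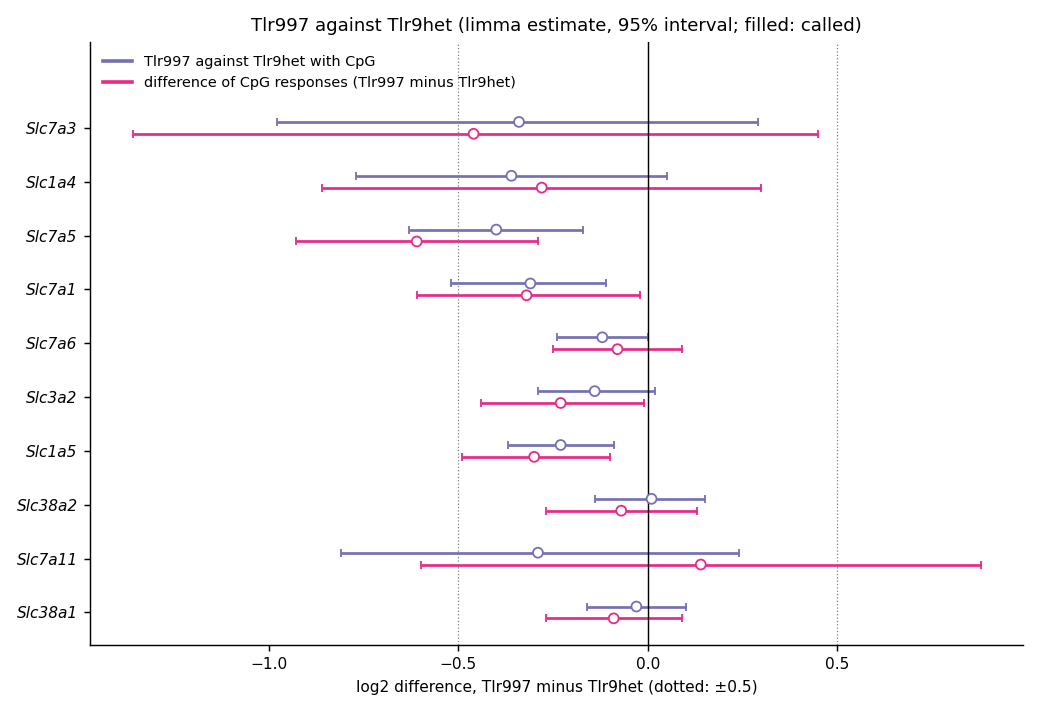
Log2 difference of Tlr997 minus Tlr9het (horizontal axis) with 95% intervals from limma, for levels with CpG and for the CpG responses. All points are open because none was called, 9 of 10 lie below 0 in each comparison, and Slc7a5 has the interval farthest from 0 among the response differences.

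Other genes of amino acid transport and use were counted from fixed lists, again for CpG in Tlr9het, CpG in Tlr997 and CL097 in Tlr779, and their counts stand against the shares of all genes given above. Of 39 other plasma membrane transporters only 11 passed the filter on low values in the first arm and 10 in the second. Of these, 2, 2 and 4 were higher and 2 were lower in each response. Slc6a9, the glycine carrier GlyT1, rose by 3.94, 2.86 and 2.01 on the log2 scale (limma adjusted p = 5.8e-07, 1.5e-05 and 0.0018). Slc6a6, the taurine carrier, rose by 0.95, 0.67 and 0.95. Slc43a2, which encodes LAT4, a carrier of the same large neutral amino acids as LAT1 that needs no heavy chain, went the other way. Its levels were 6.96, 7.15 and 7.13 log2 CPM in unstimulated Tlr9het and 3.91, 4.18 and 3.77 with CpG, and it changed by -3.13, -3.15 and -2.60 (adjusted p = 2.1e-09, 2.5e-09 and 1.5e-05). Slc38a6 changed by -1.52 and -1.36 with CpG, and by -0.38 with CL097 (adjusted p = 0.16). Slc38a10, Slc16a10 and Slc38a5 were called with CL097 and in neither CpG response, at -0.51, 0.66 and 2.93. For Slc38a10 only the fold threshold separated them, since CpG changed it by -0.44 and -0.43 (limma adjusted p = 2.4e-05 and 3.1e-05). Slc16a10 changed by 0.62 and -0.25 with CpG (adjusted p = 0.11 and 0.50). Slc38a5 lay at -2.08, -0.12 and 0.75 log2 CPM in unstimulated Tlr779, so its value is uncertain. In the Tlr7-/- arm its values followed replicate number, at 0.52 to 0.61 for number 1 and -5.12 for number 3 in all groups. It passed the filter there through the number 1 libraries alone. Its CpG estimates (SE 1.98) are therefore uninformative.

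The list of lysosomal carriers, most of which move amino acids or peptides, held more lower than higher genes in each response. Of 10 tested, 2, 3 and 1 were higher and 6, 5 and 4 lower, with median log2 fold changes of -0.54, -0.45 and -0.33. Ctns, the lysosomal exporter of cystine, changed by -1.74, -1.53 and -1.0 (limma adjusted p = 1.1e-08, 4.8e-08 and 1.2e-04). Slc15a4, a carrier of histidine and peptides that endosomal TLR signaling needs, changed by -1.66, -1.52 and -1.09. Slc29a3, the nucleoside carrier ENT3 and the only gene of the list called higher with CL097, rose by 0.66, 0.55 and 0.68. Mfsd12, which carries cysteine into lysosomes, rose by 0.55 and 0.72 with CpG, with 0.51 for CL097 not called (adjusted p = 0.057).

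Among the 25 tested genes of the amino acid response list (ATF4 and its targets, and the kinases upstream), 19, 20 and 13 were higher and 2 lower in each response, with medians of 1.49, 1.42 and 0.64. Chac1, which degrades glutathione, rose by 3.45, 3.22 and 1.85 (limma adjusted p = 4.5e-06, 9.6e-06 and 1.7e-04). Cth, which makes cysteine, rose by 3.31 and 3.16 with CpG, with 0.66 for CL097 (adjusted p = 0.079). Atf4 itself rose by 1.22, 1.06 and 0.64. The 2 genes called lower were the same in each response. Eif2ak3, the stress kinase PERK, changed by -2.19, -2.01 and -1.45, and Ddit4, an inhibitor of mTORC1, by -1.01, -1.53 and -1.82. In Tlr997 against Tlr9het with CpG, 2 genes of the list were called, both lower: Trib3, a pseudokinase that restrains ATF4, by -0.59 ± 0.15 (adjusted p = 0.033) and Cebpb, a partner of ATF4, by -0.81 ± 0.19 (adjusted p = 0.026). Their interaction terms of -0.78 (adjusted p = 0.074) and -0.90 (adjusted p = 0.12) were not called.

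**Figure D5:**
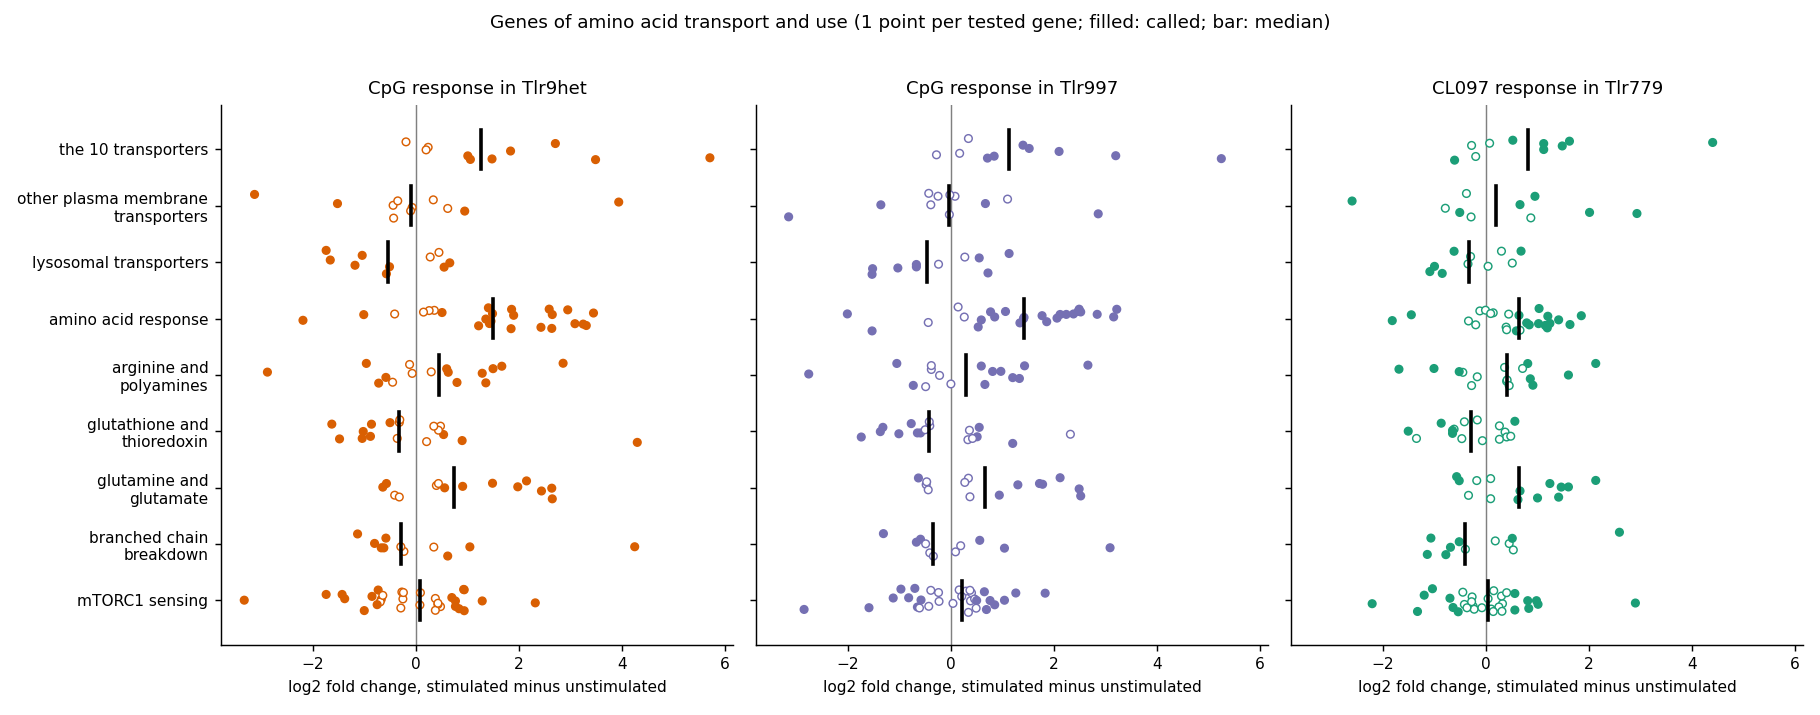
Log2 fold changes on stimulation (horizontal axis, shared by the 3 panels) of the 10 transporters and of the other fixed lists, with 1 point per tested gene, filled where called, and a bar at each list's median. The medians for CpG in Tlr9het are highest for the amino acid response (1.49) and the 10 transporters (1.27) and lowest for the lysosomal carriers (-0.54).

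Of the 31 tested genes that sense amino acids for mTORC1, 9, 8 and 7 were higher and as many lower, close to the background of 29.7%, 29.6% and 22.7% of all genes higher and 28.2%, 26.0% and 23.6% lower. The sestrins, leucine sensors that restrain mTORC1, moved apart: Sesn2 rose by 2.32, 1.83 and 0.81 (limma adjusted p = 4.8e-09, 6.1e-08 and 0.012), while Sesn1 changed by -3.33, -2.85 and -2.21 (adjusted p = 1.1e-11, 5.4e-11 and 4.3e-06). Mios, of the GATOR2 complex, rose by 1.29, 1.26 and 0.98, and Lamtor2, of the Ragulator scaffold, changed by -1.74, -1.59 and -1.04. Of 16 tested users of arginine and polyamines, 8, 8 and 5 were higher and 4, 3 and 3 lower. Srm, spermidine synthase, rose by 2.86, 2.66 and 2.13, and Odc1, the rate-limiting ornithine decarboxylase, by 1.67, 1.43 and 1.60. Atp13a2, a lysosomal polyamine exporter, changed by -2.88, -2.76 and -1.69, and Sat1, which acetylates polyamines for export, by -0.96, -1.05 and -0.52. Azin1, which stabilizes Odc1, was the only gene of these lists called in the interaction: it measured 9.0, 8.99 and 8.86 log2 CPM with CpG in Tlr9het and 8.37, 8.51 and 8.42 in Tlr997. Its difference with CpG was -0.52 ± 0.08 (adjusted p = 0.0019) and that of the responses -0.56 ± 0.11 (adjusted p = 0.021).

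Of the 17 tested genes of glutathione and thioredoxin, users of the cystine that Slc7a11 imports, 3 were higher and 7 lower in each CpG response, and 1 and 4 of 16 with CL097. Gss, glutathione synthetase, rose by 0.90, 1.20 and 0.56, Bach2, a repressor that holds B cells from plasma cell fate, changed by -1.63, -1.74 and -0.65, and Gpx1 by -1.48 and -1.37 with CpG (-0.62 with CL097, limma adjusted p = 0.13). Cbs was called in Tlr9het at 4.30 ± 1.02 but lay below 0 log2 CPM on average in unstimulated libraries, so this value is uncertain. Of 14 genes of glutamine and glutamate use, 8, 7 and 8 were higher and 2, 1 and 2 lower. Asns, asparagine synthetase, rose by 2.65, 2.52 and 1.41 and Gpt2, which makes alanine from pyruvate and glutamate, by 2.64, 2.49 and 1.24, both also in the amino acid response list. Glul, which makes glutamine, changed by -0.64, -0.63 and -0.52 and Glud1, which breaks down glutamate, by -0.57, -0.48 (not called) and -0.57. Of 11 genes of branched chain breakdown, 3, 3 and 2 were higher and 5, 3 and 5 lower. The cytosolic aminotransferase Bcat1 rose by 4.25, 3.09 and 2.59 (adjusted p = 2.8e-09, 8.5e-08 and 4.3e-05), while Ivd, of leucine breakdown, changed by -1.13, -1.31 and -1.07 and Bckdha, of the ketoacid dehydrogenase, by -0.80, -0.67 and -1.14. Dbt of the same complex rose by 1.05, 1.04 and 0.51.

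Of 8 transcription factors known to act on these transporter genes, 3 were higher in each response and 2, 1 and 0 lower. Over all tested genes, 29.7%, 29.6% and 22.7% were higher and 28.2%, 26.0% and 23.6% lower. Myc rose by 2.77, 2.39 and 2.56 (limma adjusted p = 2.9e-11, 1.3e-10 and 5.5e-06), Nfkb1 by 1.82, 1.66 and 1.52, and Atf4 as given above. Nfe2l2, encoding NRF2, changed by -0.50 and -0.65 with CpG and by 0.26 with CL097 (adjusted p = 0.042, under the fold threshold). Hif1a changed by -0.52 in Tlr9het, by -0.46 in Tlr997 (adjusted p = 4.1e-06, under the fold threshold) and by -0.21 with CL097 (adjusted p = 0.06).

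For each member the genes of most similar pattern over the 18 libraries were found among 11002 others, with each arm centred on its own mean. These correlations follow mostly from the stimulated against unstimulated contrast and are given as descriptions. Slc7a5 was closest to Mthfd2, of mitochondrial folate metabolism (Pearson's r = 0.997), and then to Clic4 (0.995), and Slc1a4 to the tRNA synthetase genes Yars (0.998) and Aars (0.996). Slc7a1 was closest to Ccdc86 (0.996) and the chaperone gene Hsph1 (0.995), Slc7a6 to the ribosome assembly genes Tsr1 and Riok2 (both 0.997), and Slc7a3 to Exosc1 (0.997) and Rnaseh1 (0.996). Slc3a2 was closest to Atp13a3 (0.990) and Eif3c (0.988), and Slc1a5 to Sesn2 (0.965) and Eif1 (0.964). Fyb followed Clec4e as a neighbour of Slc7a11 (0.913). Slc38a1 was closest to Rnf103 (0.950) and Efha1 (0.940), and Slc38a2 to Armc5 (0.903) and Pck2 (0.823). Within the set, Slc7a1, Slc7a3, Slc7a5, Slc7a6, Slc3a2 and Slc1a4 each had another member at 0.989 or more, whereas Slc7a11 and Slc38a1 reached only 0.397 and 0.131 with their nearest member.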

How the data were processed

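Splenic B cell RNA was sequenced after TruSeq mRNA preparation. Per the labels and the study's methods, the authors trimmed reads (Trim Galore 0.6.5), checked them (FastQC 0.11.7), aligned them to mm10 (STAR 2.6.1a), counted genes (featureCounts, Subread 2.0.1) and deposited log2 CPM values, quantile normalized in limma voom. The annotation and strand setting of the counting are not given in the sources used here. Counts were not analysed here, so read depth is unknown and no counting interval can be given. The deposited values carry an adjustment by replicate number: of 6614 genes below -4 log2 CPM in all 12 libraries of the Tlr7-/- arm, 6306 held 1 value per number, and of 7323 in the Tlr779 arm 7302 did. The value differed between numbers for 822 and 1817 of these and was the same in every library for the rest. The fits take no account of the 2 degrees of freedom this uses, of 8 residual in the Tlr7-/- arm. Fewer are residual in the Tlr779 arm with its 6 libraries, so the CL097 p-values and intervals may be affected more.

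The deposited log2 values were fitted with limma 3.58.1 (R 4.3.3, eBayes with trend), in 1 model of 12 libraries and 1 of 6, for genes over 0 log2 CPM in at least 3 fitted libraries. Calls needed a Benjamini-Hochberg adjusted p under 0.05 over all genes tested and a log2 fold change over 0.5 in size. On average the fit returned planted changes in simulated data with independent noise, which lacked the adjustment by replicate number. Levels per kilobase used union exon lengths of GENCODE mouse release 21 (GRCm38), and coordinates and promoters came from RefSeq GRCm38.p6, the sequence of mm10. Fold changes are on the log2 CPM scale.

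Members and lists were chosen with earlier results of these data known. All 10 members were named. For each list the named genes were the 2 highest and the 2 lowest called changes for CpG in Tlr9het, every gene called between genotypes with CpG or in the interaction, and for each member the 2 most similar genes. Slc38a10, Slc16a10, Slc38a5, Atf4 among the regulators, and the further Clec4e values were named after their values were seen. Replicates are separate mice by the labels. Same-numbered libraries deviated together in Tlr9het (r = 0.51, 0.29 and 0.51) and Tlr779 (0.25, 0.49 and 0.33). In Tlr997 the values were 0.37, 0.0826 and 0.0248, while libraries of different numbers reached 0.17. Number 1 libraries also correlated between Tlr9het and Tlr997, which do not share mice, at 0.32 with CpG and 0.19 unstimulated. The other numbers gave -0.11 to 0.11 there, and different numbers up to 0.26 and 0.31. The deposited values also carry the adjustment by replicate number. These correlations therefore cannot show which libraries share a mouse. Alternatives covered filters, thresholds, normalization, an offset, weights, variance trend, samples fitted, blocks and single libraries left out.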

Additional observations from a re-analysis of the deposited data

Results flagged for a closer look

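Slc38a2, the carrier SNAT2, was called in no response, since all its changes were under the fold threshold. Every CpG library of Tlr9het was above every unstimulated one, with a log2 fold change of 0.24, and every CL097 library of Tlr779 was below every unstimulated one, with -0.20. In Tlr997 the change with CpG was 0.17 and the libraries overlapped. The difference between the agonists was not tested, because sex, genotype and agonist differ together between these arms.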

How the results depend on the processing

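Each response kept the direction of its called members under every alternative run. With an adjusted p at any fold change, the number of members called lower became 1 for CpG in each genotype, 2 for CL097 and 1 for Tlr997 against Tlr9het with CpG; with a fold change over 1 on the log2 scale it became 0 for CL097. The number called higher ranged from 7 to 8 for CpG in Tlr9het, 5 to 8 in Tlr997 and 5 to 6 for CL097. At a fold change over 1, Slc3a2 (0.84) and Slc1a5 (0.71) lost their call in Tlr997. For the difference of CpG responses, 1 of the members (Slc7a5) was called lower with a filter at 2 log2 CPM, with array weights, with log2(CPM + 1) and with the replicate block or the replicate block within genotype, and 0 to 1 when single libraries were left out. Taking replicate number as a block left the Slc7a5 difference at -0.61 (limma adjusted p = 0.043, and 0.0055 within genotype) and changed no other call of a member. Estimates that turned sign belonged to members not called. With 1 library left out, Slc7a11 ran from -0.05 to 0.45 for CpG in Tlr9het, from -0.74 to 0.10 for CL097 (0.04 without the first unstimulated library) and, for the interaction, from -0.11 to 0.39 (also -0.03), where Slc1a4 ran from -0.43 to 0.00 and Slc38a2 reached 0.00. Likewise with CpG between genotypes, Slc38a1 ran from -0.07 to 0.02 and Slc38a2 from -0.04 to 0.07 (also -0.02 and -0.00), and unstimulated, Slc1a4 ran from -0.36 to 0.07 (also 0.06), Slc7a1 from -0.13 to 0.09 (also -0.02) and Slc7a3 from -0.17 to 0.54 (also -0.04). Unstimulated, Slc1a4 was 0.23 with array weights and Slc7a1 -0.00 with medians set equal. The causes were not tested. With 3 libraries a group and no read depth, differences between genotypes under the fold threshold could not be settled here.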
